A study of Homo sapiens with 4 samples.

Results

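NUGC3 is a human cancer cell line of stomach origin. This account describes the RNA of its unmodified, wild-type cells: which genes were on, which were listed at or near 0, and how large a share of the transcripts each group of genes took. The profile rests on the 2 libraries labelled wild type out of 4 in the study, and the other 2 libraries, from NUGC3 cells with a MYC knockdown, were not used. Of 344810 rows in the deposited table, the 53777 that carry an Ensembl gene identifier were kept, of which 20269 are protein-coding. No drug, time point or culture condition is named for these cells in the labels. All cells are of 1 line, and nothing says that the 2 libraries came from separate cultures, so the spread between them may be technical.

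Values were read as FPKM, fragments scaled to transcript length and to the library's total. Because of the scaling to length, levels of different genes can be set side by side within a library. Each gene is given by its value in replicate 1 and then in replicate 2. A gene was counted as expressed where it reached 1 FPKM in both libraries, and as near 0 where it was below 0.1 FPKM in both. With 1 group of 2 libraries there is no contrast to test, and all statements are descriptions. In bulk RNA, fewer cells making a transcript and less RNA per cell cannot be told apart.

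Of the protein-coding genes, 11262 (55.6%) were expressed, 7001 (34.5%) reached 10 FPKM and 890 (4.39%) reached 100 FPKM in both libraries. At the other end 6258 (30.9%) were near 0, and 4516 (22.3%) were listed at 0 in both. The median protein-coding gene stood at 2.92 FPKM and the median expressed one at 15.5 FPKM. The replicates were close: the median absolute log2 difference between them was 0.104 for genes of 1 to 10 FPKM, 0.0591 for 10 to 100 FPKM and 0.0357 at 100 FPKM or more. MYC, the transcription factor targeted in the rest of the study, had 82.9 and 82.0 FPKM in these untreated cells.

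Epithelial cells are held together by E-cadherin junctions and desmosomes and are built around keratin filaments. Simple, glandular epithelium such as that of the stomach uses KRT8 and KRT18, whereas the basal layer of squamous epithelium uses KRT5 and KRT14 under the control of the transcription factor p63. Mature stomach epithelium is further marked by secreted products, gastric mucin and trefoil peptides from surface cells and pepsinogens and acid pump subunits from the glands.

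The general epithelial programme was expressed nearly whole. Of 53 measured genes of simple and glandular epithelium, 50 were expressed (94.3%, against 55.6% of all protein-coding genes), with a median of 52.7 FPKM. KRT18 had 2092 and 2131 FPKM and KRT8, its obligate filament partner, had 2031 and 2045 FPKM. They ranked 36th and 38th among protein-coding genes, and their ratio was 1.03 and 1.04. KRT7 followed with 993 and 983 FPKM and KRT19 with 655 and 661 FPKM. The adhesion molecule EPCAM had 210 and 209 FPKM, and CDH1, which encodes E-cadherin, had 56.0 and 54.3 FPKM. The laminin receptor subunit ITGA6 had 291 and 299 FPKM. KRT23 was the member listed at 0 in both libraries, and the other 2 that were not counted as expressed, MUC1 (1.70 and 0.95 FPKM) and TJP3 (1.20 and 0.92 FPKM), fell on either side of 1 FPKM.

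**Figure D1:**
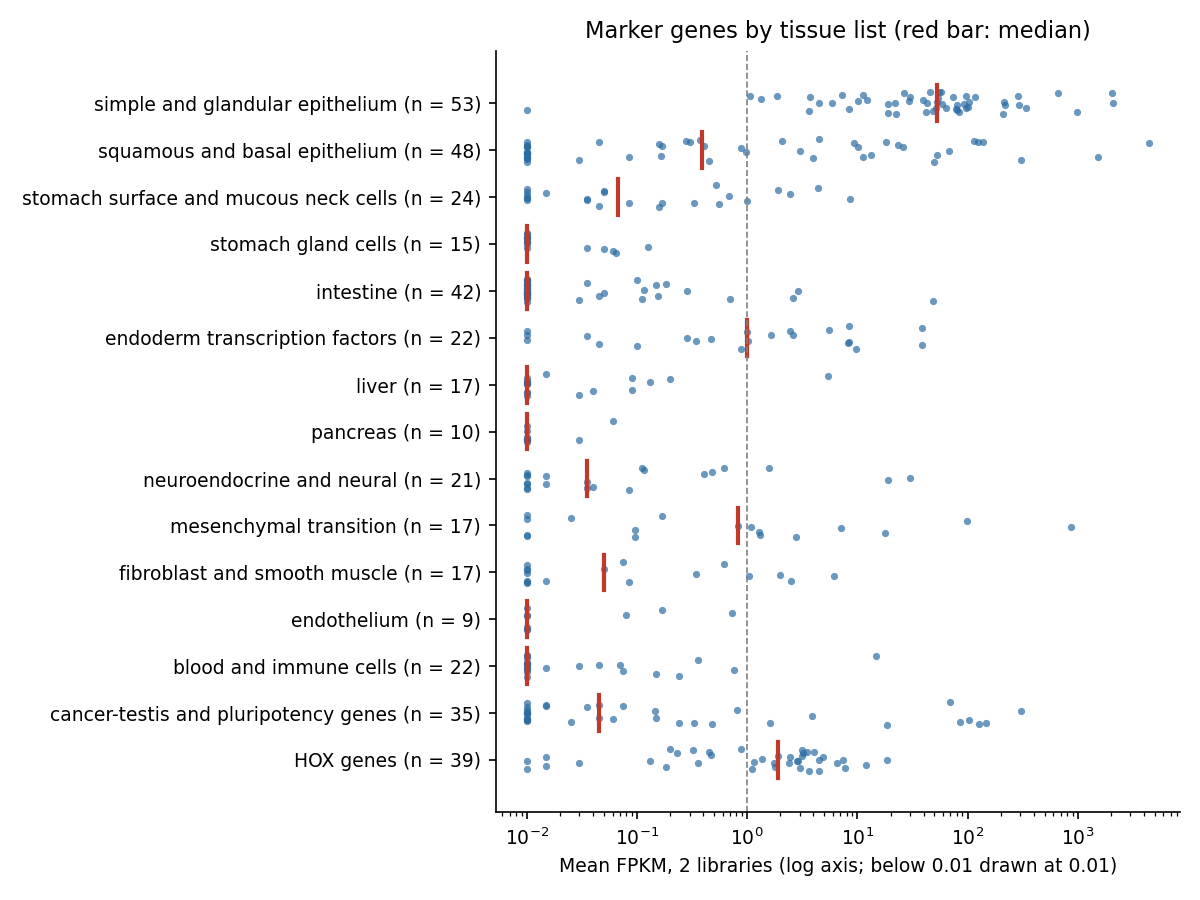
Each point is the mean FPKM of a gene over the 2 wild-type libraries (log axis), arranged by marker list, with the list median as a red bar and 1 FPKM as a dashed line. The epithelial list lies almost wholly to the right of the dashed line with a median of 52.7 FPKM, whereas the stomach gland, intestine, liver and pancreas lists have medians of 0.

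Products that mark differentiated stomach were close to absent. These markers describe mature stomach cells, and the tissue of origin of the line was not tested. None of 15 genes of the stomach glands was expressed (0%, against 55.6% of all protein-coding genes), and their summed level was 0.32 and 0.37 FPKM. The pepsinogen gene PGC, gastric lipase LIPF and gastrin GAST were listed at 0, and the acid pump subunit ATP4A had 0.02 and 0 FPKM. Of 24 genes of surface and mucous neck cells, 4 were expressed (16.7%, against 55.6% of all protein-coding genes), with a sum of 21.1 and 21.0 FPKM. The mucin MUC5AC had 0.02 and 0.01 FPKM, the tight junction protein CLDN18 had 0.02 and 0.05 FPKM, and the trefoil peptides TFF1 (0 and 0.17 FPKM) and TFF2 (0 and 0.1 FPKM) were read in 1 library each. The 4 expressed members were the transcription factors FOXQ1 (8.16 and 8.84 FPKM) and GATA5 (2.55 and 2.38 FPKM), the aspartic protease CTSE (3.83 and 5.0 FPKM) and the secretory-pathway disulfide isomerase AGR2 (2.31 and 1.47 FPKM). PDX1 (1.16 and 0.83 FPKM) and VSIG1 (1.14 and 0.24 FPKM) passed 1 FPKM in 1 library.

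Intestinal genes, which many stomach cancers take on, were no more complete. Of 42, 3 were expressed (7.14%, against 55.6% of all protein-coding genes). Among them were the carbonic anhydrase CA2 (48.7 and 48.5 FPKM) and the homeobox factor CDX2 (2.80 and 2.99 FPKM). CDX1 was listed at 0, the brush border protein VIL1 had 0.02 and 0.04 FPKM and the goblet cell mucin MUC2 had 0.08 and 0.14 FPKM. In all, 24 members were at 0 in both libraries, as were 22.3% of all protein-coding genes.

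Transcription factors of the endoderm, the germ layer that forms the gut lining, were expressed in 10 of 22 cases (45.5%, below the 55.6% of all protein-coding genes). KLF5 (38.3 and 39.2 FPKM) and SOX9 (38.4 and 38.3 FPKM) were highest and could not be ordered, since their ranges overlapped. KLF4 had 9.88 and 9.42 FPKM. The pioneer factor FOXA1 (8.83 and 7.93 FPKM), GATA6 (7.89 and 8.86 FPKM) and HHEX (8.93 and 7.63 FPKM) overlapped as well. GATA4 stood below them with 5.73 and 5.28 FPKM and FOXA2 with 1.73 and 1.58 FPKM. HNF4A, which drives intestinal and hepatic gene expression, had 0.15 and 0.05 FPKM.

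A part of the squamous and basal programme was present beside the glandular keratins. Of 48 genes in that list 20 were expressed (41.7%, below the 55.6% of all protein-coding genes). Of the 48, 14 reached 10 FPKM and 6 reached 100 FPKM, levels that 34.5% and 4.39% of all protein-coding genes reach. S100A9, a calcium-binding alarmin that forms calprotectin with S100A8, led with 4382 and 4429 FPKM (4405 ± 33.5, SD, n = 2), the 14th highest level of any protein-coding gene. S100A2 had 1559 and 1481 FPKM, the hair-type keratin KRT81 had 304 and 311 FPKM, S100A7 (psoriasin) had 127 and 152 FPKM, the desmosomal p63 target PERP had 123 and 124 FPKM, and SFN, encoding 14-3-3 sigma, had 118 and 112 FPKM. The serpins SERPINB5 (66.9 and 68.8 FPKM) and SERPINB2 (51.6 and 53.5 FPKM) came next, followed by S100A8 (49.8 and 50.2 FPKM) and the cystatin CSTA (13.4 and 13.4 FPKM). KRT17 had 10.7 and 11.8 FPKM.

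The defining members of that list split. TP63 was expressed at 18.47 and 18.04 FPKM, KRT5 at 22.96 and 23.71 FPKM and KRT6A at 26.3 and 25.4 FPKM, but KRT14, the usual filament partner of KRT5, had 0.17 and 0.16 FPKM. The ratio of KRT5 to KRT8 was 0.0113 and 0.0116. KRT6A shares most of its sequence with KRT6B (0.88 and 0.88 FPKM) and KRT6C (0.03 and 0 FPKM), so reads could be split between them and the single values are uncertain. The cornified-layer genes IVL, LORICRIN, SPRR1A, SPRR1B, SPRR2A and SPRR3, the suprabasal keratins KRT1 and KRT13 and the desmosomal cadherin DSG3 were listed at 0 in both libraries.

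The contrast between S100 genes and cornified-layer genes followed gene order on chromosome 1. There the S100 genes flank the genes of the cornified envelope in the epidermal differentiation cluster. Between S100A10 and S100A1 lie 62 protein-coding genes, of which 14 were expressed. All 14 belong to the 17 S100 genes of the interval. None of the 18 late cornified envelope (LCE) genes, 10 small proline-rich (SPRR) genes and 7 filaggrin-type genes was, and the highest of them, an SPRR gene, had 0.17 FPKM. At the outer side S100A10 had 579 and 605 FPKM and S100A11 had 1263 and 1266 FPKM. On the inner side S100A9, S100A12 (4.75 and 4.04 FPKM) and S100A8 are neighbours, and S100A9 exceeded S100A8 by 88.0 and 88.3 times, although their proteins act as a pair. S100A6 had 1237 and 1164 FPKM, and S100A16 had 326 and 330 FPKM.

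**Figure D2:**
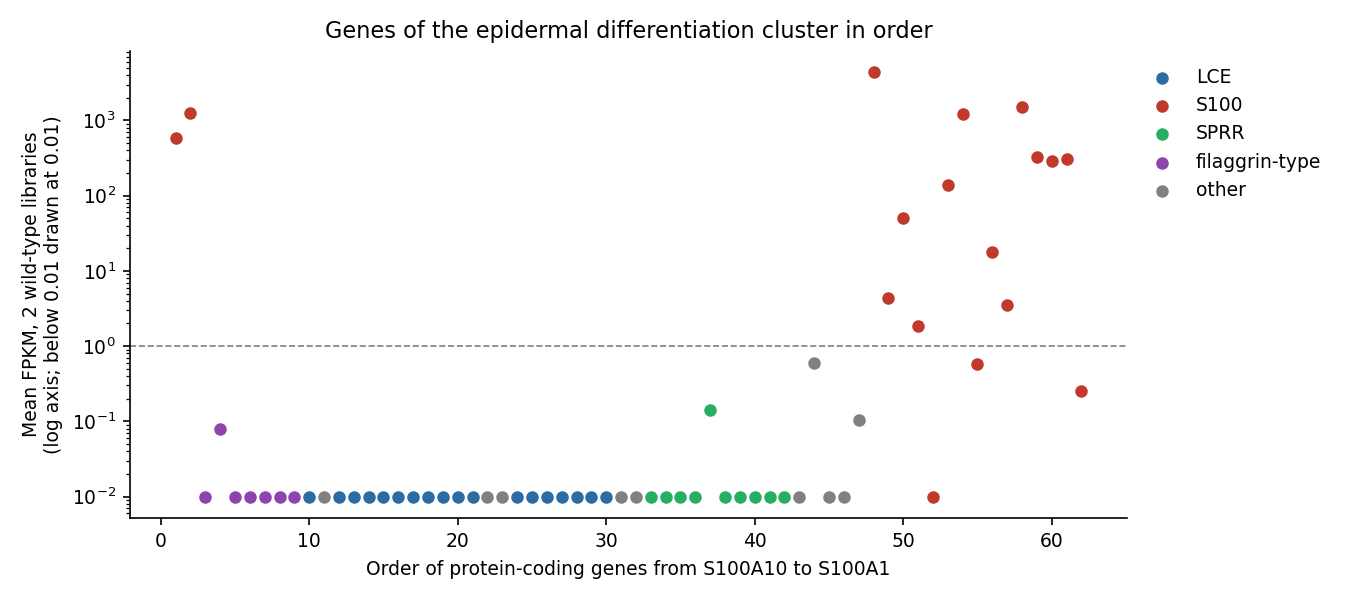
Points are the mean FPKM of the 2 wild-type libraries (log axis, values below 0.01 drawn at 0.01) for 62 protein-coding genes in their order on chromosome 1 from S100A10 to S100A1, coloured by family. Genes above the dashed line at 1 FPKM are all S100 genes, at both ends of the interval, and the LCE, SPRR and filaggrin-type genes between them lie below it.

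Lists for other tissues were mostly near 0, with 0% to 14.3% of members expressed, against 55.6% of all protein-coding genes. None of 10 pancreatic genes and none of 9 endothelial genes was expressed. CPA1, INS and VWF were listed at 0, PRSS1 had 0.12 and 0 FPKM and CDH5 had 0.20 and 0.14 FPKM. Among 17 liver genes SERPINA1, the elastase inhibitor alpha-1-antitrypsin, was expressed (5.19 and 5.57 FPKM), and ALB, AFP and APOB were at 0. Among 22 blood and immune genes the lysosomal protein CD68 was expressed (12.4 and 17.1 FPKM). The leukocyte antigen PTPRC was at 0 and the T cell receptor subunit CD3E had 0 and 0.03 FPKM, so the S100A9 and cytokine RNA described here was not accompanied by RNA of these leukocyte markers. Among 21 neuroendocrine and neural genes the tubulin TUBB3 (31.3 and 28.7 FPKM), the enolase ENO2 (18.3 and 19.9 FPKM) and SYT1 (1.70 and 1.47 FPKM) were expressed, but the defining markers SYP (0.31 and 0.51 FPKM), CHGA (0.16 and 0.07 FPKM) and INSM1 (0.03 and 0 FPKM) were not.

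Genes linked to epithelial to mesenchymal transition, in which epithelial cells lose junctions and gain motility, covered a wide range of levels. Of 17 genes 8 were expressed (47.1%, below the 55.6% of all protein-coding genes). Of the 17, 3 reached 10 FPKM and 5 were near 0, against 34.5% and 30.9% of all protein-coding genes. Fibronectin FN1 (850 and 903 FPKM), the receptor kinase AXL (98.4 and 98.8 FPKM), the calcium-binding S100A4 (18.1 and 17.3 FPKM) and the repressor SNAI2 (6.70 and 7.56 FPKM) were the highest. Vimentin VIM, the defining filament of mesenchymal cells, had 1.17 and 1 FPKM, N-cadherin CDH2 had 0.08 and 0.11 FPKM and the repressor ZEB1 had 0.03 and 0.02 FPKM. TWIST1, TWIST2, ZEB2 and PRRX1 were listed at 0. CDH1 exceeded VIM 47.8 and 54.2 times. In the list for fibroblasts and smooth muscle 3 of 17 genes were expressed (17.6%, against 55.6% of all protein-coding genes). COL1A1 was highest (6.57 and 5.75 FPKM), with ACTA2 at 0.85 and 1.23 FPKM, PDGFRB at 0 and 0.01 FPKM, and COL1A2 and COL3A1 at 0.

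A few genes that are silent in most adult tissues were high, within a list that was mostly off. Cancer-testis genes are normally restricted to germ cells, and many lie on the X chromosome. Of 35 cancer-testis and pluripotency genes 9 were expressed (25.7%, against 55.6% of all protein-coding genes). Of these, 7 reached 10 FPKM, a level that 34.5% of all protein-coding genes reach. MAGEA4 had 309 and 306 FPKM, MAGEB2 146 and 147 FPKM, XAGE1A 138 and 118 FPKM, MAGEA1 105 and 102 FPKM, MAGEA6 87.7 and 84.9 FPKM and CTAG2 71.7 and 68.2 FPKM. IGF2BP3, an oncofetal RNA-binding protein, had 18.3 and 18.8 FPKM. MAGEA3 had 3.59 and 4.15 FPKM and PRAME 1.53 and 1.67 FPKM, while CTAG1B, NY-ESO-1, and the SSX genes were listed at 0 and the pluripotency factor POU5F1 had 0.88 and 0.75 FPKM. The expressed set was selective: MAGEA4 and MAGEA1 stood above 100 FPKM, but MAGEA10, MAGEA11 and MAGEA12 were below 0.1 FPKM in both libraries. MAGEA3 and MAGEA6 are near-identical copies, so their sum (91.3 and 89.1 FPKM) is firmer than their split, and XAGE1A and CTAG2 also have close copies.

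HOX genes carry the positional identity of the embryo along its head-to-tail axis in 4 clusters. Of 39 genes 23 were expressed (59%, near the 55.6% of all protein-coding genes), and 5 reached 5 FPKM in both libraries. The HOXA cluster was on throughout, with 11 of 11 expressed, against 6 of 10 in HOXB, 4 of 9 in HOXC and 2 of 9 in HOXD. HOXC10 was highest with 18.8 and 18.1 FPKM, ahead of HOXB7 with 11.97 and 12.05 FPKM. HOXA10 (8.01 and 7.46 FPKM) and HOXA3 (7.67 and 7.26 FPKM) overlapped. HOXC11 had 6.76 and 6.26 FPKM and HOXB3 4.85 and 4.89 FPKM. HOXA9 had 2.41 and 2.35 FPKM and HOXD9 had 0.49 and 0.42 FPKM. In HOXD the 2 expressed genes, HOXD10 (2.70 and 2.20 FPKM) and HOXD11 (1.71 and 1.84 FPKM), are adjacent.

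**Figure D3:**
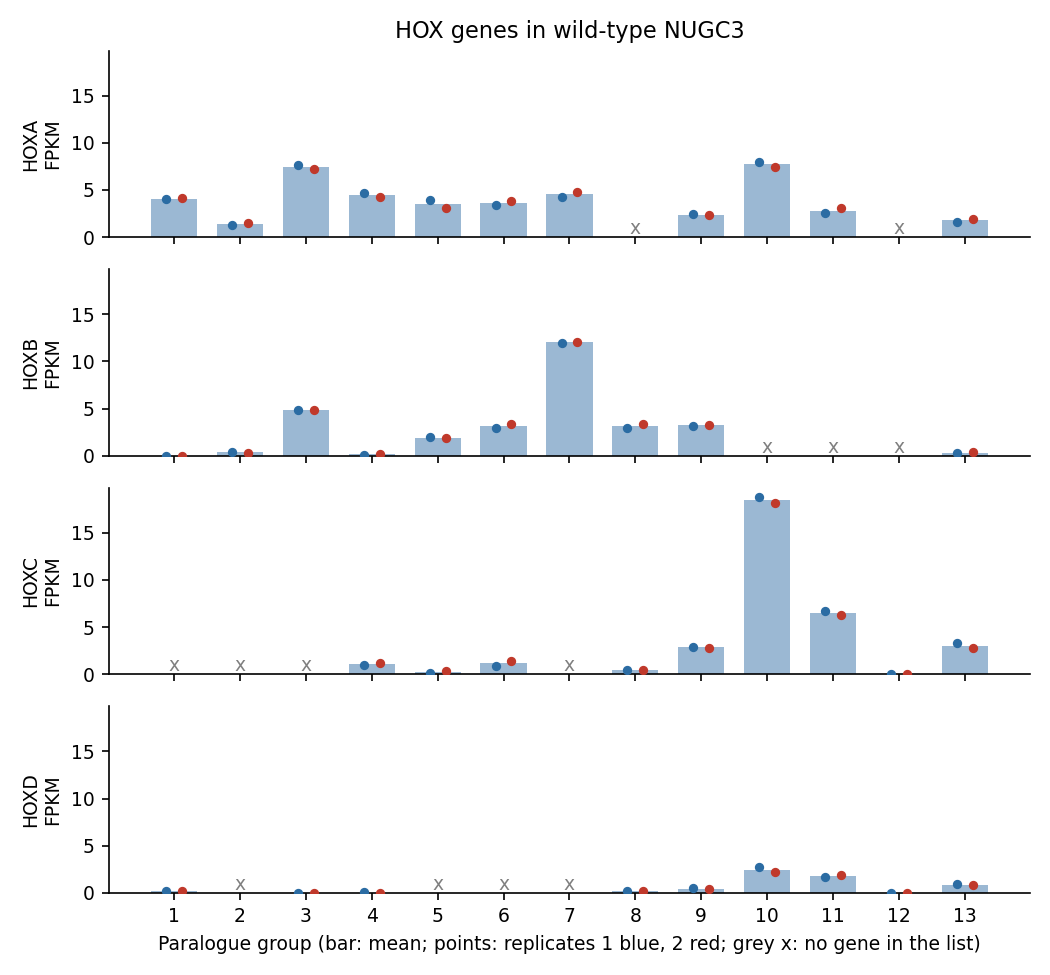
Bars show the mean FPKM of 2 wild-type libraries and points the single libraries, for 39 HOX genes by cluster and paralogue group. All 11 HOXA genes are above 1 FPKM, HOXC10 is the highest bar at 18.8 and 18.1 FPKM, and HOXD is low apart from groups 10 and 11.

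Among the secreted factors, a few inflammatory cytokines and neutrophil-attracting chemokines were very high, although most chemokine genes were near 0. Chemokines bind G protein-coupled receptors on leukocytes, and those with a glutamate-leucine-arginine motif, CXCL1, CXCL2, CXCL3, CXCL5 and CXCL8, act on CXCR1 and CXCR2 of neutrophils. Many of these genes are induced through NF-kB, a transcription factor that binds short sites near their start. The 5 CXC genes lie in a cluster on chromosome 4. Their RefSeq promoters (GRCh38.p14) are shown here, because the 5 genes were expressed and hold the same letters, for which they were chosen after the search. Each sequence runs from 100 bases before the annotated start to the base before it, and capitals mark GGAATTTCC, an NF-kB motif, and TATAAA, the TATA box.
CXCL1 (chr4:73869293-73869392, plus strand): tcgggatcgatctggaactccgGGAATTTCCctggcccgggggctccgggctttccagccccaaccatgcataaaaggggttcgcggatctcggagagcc
CXCL2 (chr4:74099196-74099295, minus strand): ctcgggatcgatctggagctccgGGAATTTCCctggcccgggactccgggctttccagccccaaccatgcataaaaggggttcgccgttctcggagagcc
CXCL3 (chr4:74038690-74038789, minus strand): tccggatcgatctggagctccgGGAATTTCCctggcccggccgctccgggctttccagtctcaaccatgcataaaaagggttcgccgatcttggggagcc
CXCL5 (chr4:73998678-73998777, minus strand): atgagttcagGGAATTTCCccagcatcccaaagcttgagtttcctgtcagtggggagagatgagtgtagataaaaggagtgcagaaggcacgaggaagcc
CXCL8 (chr4:73740469-73740568, plus strand): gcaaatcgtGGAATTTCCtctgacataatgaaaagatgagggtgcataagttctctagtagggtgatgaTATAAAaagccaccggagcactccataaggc

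The motif GGAATTTCC began at -78 in CXCL1, -77 in CXCL2, -78 in CXCL3, -90 in CXCL5 and -91 in CXCL8. Searched on both strands (GGAATTTCC and its reverse complement GGAAATTCC), it was found in 162 of 35093 promoter windows of 300 bases (0.462%). TATAAA between -40 and -20 was found in 2.26% of all windows, and of these 5 in that of CXCL8, at -31. CXCL1, CXCL2 and CXCL3 arose by duplication and share most of their letters, so they are not independent instances. None of the windows of IL1A, IL1B, MIF, IL32, CSF2, TNF, IL6 and CCL20 held the motif, although IL1A and IL1B were higher than CXCL1. Only these exact letters were searched, and other forms of NF-kB site in the windows were not looked for. A match of letters is a description and does not show binding.

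The chemokine levels fell over a wide range. CXCL1 had 863 and 874 FPKM, which ranked 116th among protein-coding genes. CXCL8, interleukin-8, had 474 and 484 FPKM. CXCL5 had 188 and 188 FPKM, CXCL2 had 137 and 137 FPKM, and CXCL3 had 46.1 and 45.3 FPKM. Together these 5 ligands summed to 1707 and 1728 FPKM, and no neighbours in this order overlapped. CCL20, which attracts CCR6-bearing lymphocytes and dendritic cells, had 319 and 332 FPKM, between CXCL8 and CXCL5. CXCL16 (34.7 and 37.3 FPKM), CCL5 (5.38 and 5.41 FPKM), CCL28 (2.39 and 2.62 FPKM) and CCL2 (1.5 and 2.01 FPKM) completed the 10 expressed of 42. That share, 23.8%, was below the 55.6% of all protein-coding genes. The interferon-induced chemokine CXCL10 had 0.11 and 0.19 FPKM, CXCL9 was at 0, and CXCL6, a further neutrophil chemokine, had 0.05 and 0 FPKM.

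Cytokines of the interleukin-1 family were higher still. IL1A had 965 and 972 FPKM and IL1B 884 and 894 FPKM, in 100th and 112th place among protein-coding genes. Both encode precursors that act through IL1R1, and IL-1 beta needs cleavage by caspase-1. IL1RN, the receptor antagonist, had 4.72 and 5.49 FPKM, which put IL1A 204 and 177 times and IL1B 187 and 163 times above it. The receptors were modest: IL1R1 3.73 and 3.65 FPKM, its partner IL1RAP 7.56 and 8.08 FPKM and the decoy IL1R2 9.28 and 9.27 FPKM. CASP1, encoding caspase-1, had 1.12 and 1.04 FPKM.

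Of 70 interleukins and other cytokines 28 were expressed (40%, below the 55.6% of all protein-coding genes). After the IL-1 genes came the macrophage migration inhibitory factor MIF (427 and 407 FPKM), IL32 (139 and 140 FPKM), the IL-6 family cytokine LIF (57.5 and 57.0 FPKM), FAM3C (50.9 and 49.9 FPKM) and CSF2, which encodes GM-CSF (36.4 and 34.7 FPKM). TNF (29.1 and 32.4 FPKM) and IL18 (29.4 and 28.8 FPKM) overlapped, and EBI3 had 18.2 and 18.6 FPKM. IL6 had 16.7 and 14.9 FPKM. Interferon genes IFNB1, IFNG, IFNA1, IFNL2 and IFNL3 were listed at 0, as were IL10, IL17A and TSLP. A few NF-kB pathway genes were picked after their values were seen, and activity of the pathway was not tested. Of these, NFKBIA, the inhibitor that NF-kB itself induces, had 246 and 242 FPKM and NFKB2 66.3 and 63.4 FPKM. BIRC3 had 44.5 and 44.3 FPKM, NFKB1 36.0 and 36.7 FPKM and RELB 16.9 and 16.3 FPKM.

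**Figure D4:**
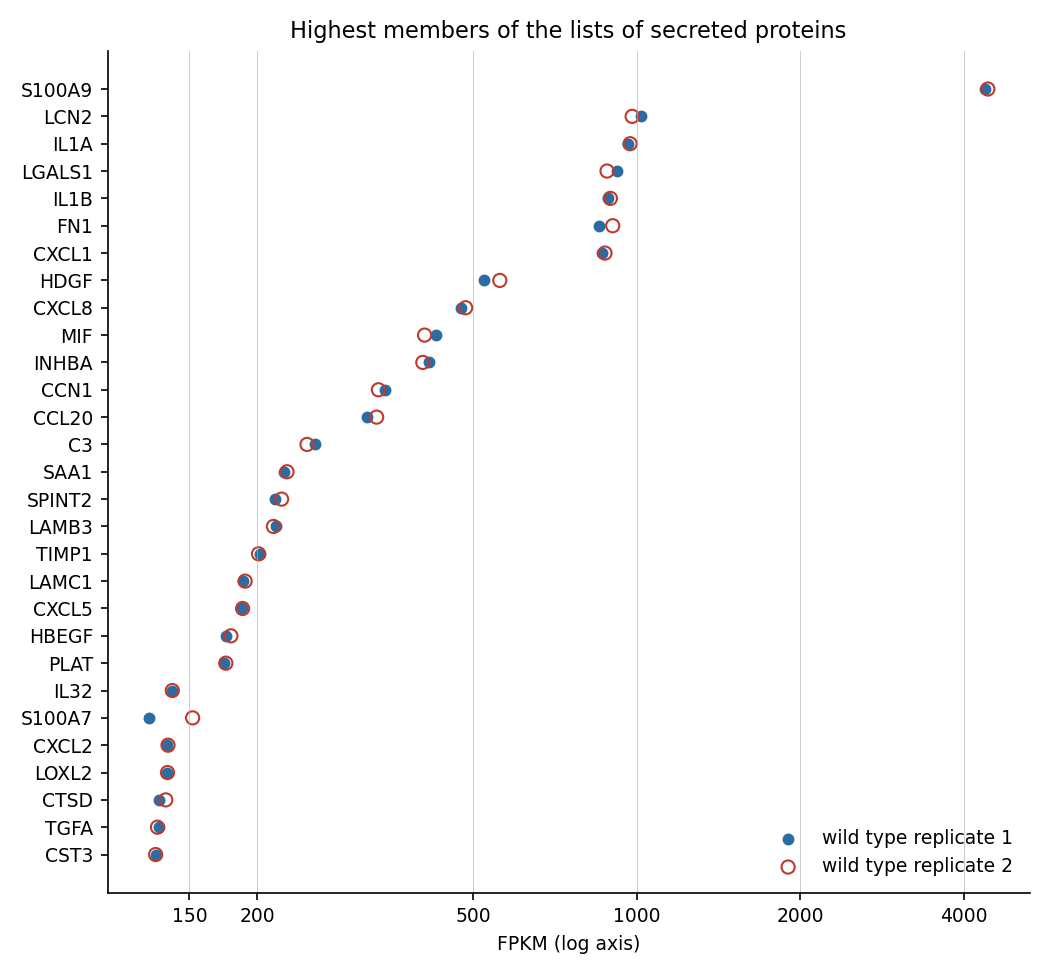
Filled and open points are the FPKM of wild-type replicates 1 and 2 (log axis) for the highest members of the lists of secreted proteins described here. S100A9 stands apart at 4382 and 4429 FPKM, LCN2, IL1A, LGALS1, IL1B, FN1 and CXCL1 lie between 850 and 1017 FPKM, and the replicates nearly coincide for most genes.

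CCL20 and S100A9, which were also high, hold TATAAA in place but not the 9-letter motif in this window; each is shown beside S100A8 because S100A8 and S100A9 encode a heterodimer yet differed in level. Capitals mark TATAAA.
CCL20 (chr2:227813742-227813841, plus strand): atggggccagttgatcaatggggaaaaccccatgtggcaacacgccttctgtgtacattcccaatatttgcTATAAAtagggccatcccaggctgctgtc
S100A9 (chr1:153357754-153357853, plus strand): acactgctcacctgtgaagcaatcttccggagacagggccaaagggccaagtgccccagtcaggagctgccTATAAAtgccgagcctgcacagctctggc
S100A8 (chr1:153391074-153391173, minus strand): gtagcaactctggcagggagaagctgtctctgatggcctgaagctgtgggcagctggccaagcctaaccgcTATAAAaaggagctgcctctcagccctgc
In all 3 the match began at -29.

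TATA boxes and CpG dinucleotides varied with level over all promoters. Among 21369 windows of 15142 protein-coding genes, TATAAA at -40 to -20 was found in 6.37% of windows for genes below 0.1 FPKM, 3.62% at 0.1 to 1 FPKM, 1.41% at 1 to 10 FPKM, 1.09% at 10 to 100 FPKM and 3.55% at 100 FPKM or more. The share was thus lowest in the middle of the range and higher at both ends. The median number of CpG in 300 bases was 7 for genes below 0.1 FPKM and 14, 24, 26 and 25 in the following classes. The windows of CXCL8, CCL20, S100A9 and S100A8 held 4, 3, 5 and 2 CpG, and those of CXCL1, CXCL2 and CXCL3 held 22, 22 and 24.

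Antimicrobial and protease-related proteins were expressed in 51 of 85 cases (60%, near the 55.6% of all protein-coding genes). Their sum was the highest of the secreted lists (8548 and 8624 FPKM), and S100A9 alone held 4382 and 4429 FPKM of it. Beside S100A9, LCN2, which binds bacterial iron carriers, had 1017 and 980 FPKM, the complement component C3 256 and 247 FPKM and the acute-phase protein SAA1 224 and 227 FPKM. The serine protease inhibitor SPINT2 had 216 and 222 FPKM, the metalloprotease inhibitor TIMP1 202 and 201 FPKM, the cathepsin CTSD 132 and 136 FPKM and the cystatin CST3 130 and 130 FPKM. In the plasminogen system PLAT, tissue plasminogen activator, had 174 and 175 FPKM and PLAU, urokinase, 99.8 and 105 FPKM, with its receptor PLAUR at 88.3 and 97.4 FPKM. Of their inhibitors, SERPINE2 had 61.4 and 63.9 FPKM. SLPI had 28.7 and 30.9 FPKM. MMP14 (75.3 and 80.8 FPKM), MMP1 (35.0 and 34.2 FPKM) and MMP9 (10.4 and 10.3 FPKM) were expressed, whereas MMP7 had 0.04 and 0 FPKM and MMP2 was at 0.

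Of 113 growth factor genes 54 were expressed (47.8%, below the 55.6% of all protein-coding genes). HDGF had 524 and 559 FPKM and INHBA, whose product dimerises to activin A, 415 and 404 FPKM. The EGF receptor ligands HBEGF (175 and 179 FPKM) and TGFA (132 and 131 FPKM) were high, while AREG had 10.2 and 7.69 FPKM, EREG 0.03 and 0.07 FPKM and EGF 0.46 and 0.39 FPKM. GAS6, the ligand of AXL, had 116 and 117 FPKM, the angiogenic VEGFA 104 and 102 FPKM, the Notch ligand JAG1 57.2 and 57.0 FPKM, stanniocalcin STC2 53.1 and 44.6 FPKM, endothelin EDN1 39.5 and 42.4 FPKM and the ephrin EFNA1 31.4 and 30.6 FPKM. TGFB1 had 26.0 and 26.5 FPKM and WNT5A 0.27 and 0.23 FPKM. INHBA exceeded its binding inhibitor FST (24.96 and 23.26 FPKM) 16.6 and 17.3 times.

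Of 53 matrix and matricellular genes 35 were expressed (66%, against 55.6% of all protein-coding genes). Several laminin chains of the basement membrane were among the highest. The galectin LGALS1 (919 and 881 FPKM) and FN1 overlapped at the top, followed by the matricellular CCN1 (344 and 334 FPKM) and the laminin chains LAMB3 (217 and 214 FPKM) and LAMC1 (188 and 190 FPKM). The cross-linking oxidase LOXL2 had 136 and 137 FPKM, LGALS3BP 117 and 122 FPKM, LAMA5 87.9 and 83.2 FPKM and THBS1 86.6 and 82.6 FPKM. FN1 exceeded COL1A1 129 and 157 times. Osteopontin SPP1, periostin POSTN and BGN were listed at 0. Partner chains of 1 collagen did not go together. COL4A1 had 82.8 and 81.3 FPKM and COL4A2, the chain it normally assembles with and whose gene lies head to head with it, 0.09 and 0.18 FPKM. COL6A1 (64.6 and 64.8 FPKM) and COL6A2 (46.1 and 46.1 FPKM) were expressed without COL6A3 (0.09 and 0.08 FPKM). Of 18 mucins, which coat glandular surfaces, 2 were expressed (11.1%, against 55.6% of all protein-coding genes). They were MUC4 (4.19 and 4.44 FPKM) and MUC16 (1.77 and 1.28 FPKM).

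The receptors for some of these factors were near 0 in the same cells, and those for others were expressed. Of 22 chemokine receptors 2 were expressed (9.09%, against 55.6% of all protein-coding genes). They were the scavenger ACKR2 (7.30 and 9.39 FPKM) and CCR10 (3.61 and 4.11 FPKM). CXCR1 was at 0 and CXCR2 at 0 and 0.05 FPKM, against ligands that summed to 1707 and 1728 FPKM. CCR6, the receptor of CCL20, was at 0, and CXCR4 had 0.03 and 0.09 FPKM. For GM-CSF the binding chain CSF2RA was present (21.74 and 21.98 FPKM) and the signalling chain CSF2RB was not (0.01 and 0.02 FPKM). For IL-6 the ligand-binding IL6R had 0.07 and 0.21 FPKM and the shared IL6ST 30.3 and 26.4 FPKM. A complete set was expressed for LIF (LIFR 10.1 and 10.1 FPKM, with IL6ST). For TNF, TNFRSF1A had 56.6 and 53.7 FPKM and TNFRSF1B 0.02 and 0.06 FPKM. Receptors were also expressed for VEGFA (FLT1 5.97 and 4.23 FPKM) and EDN1 (EDNRB 6.52 and 6.03 FPKM), although KDR and EDNRA were near 0. For activin A, ACVR2A had 3.10 and 3.58 FPKM and ACVR1B 8.29 and 9.83 FPKM.

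**Figure D5:**
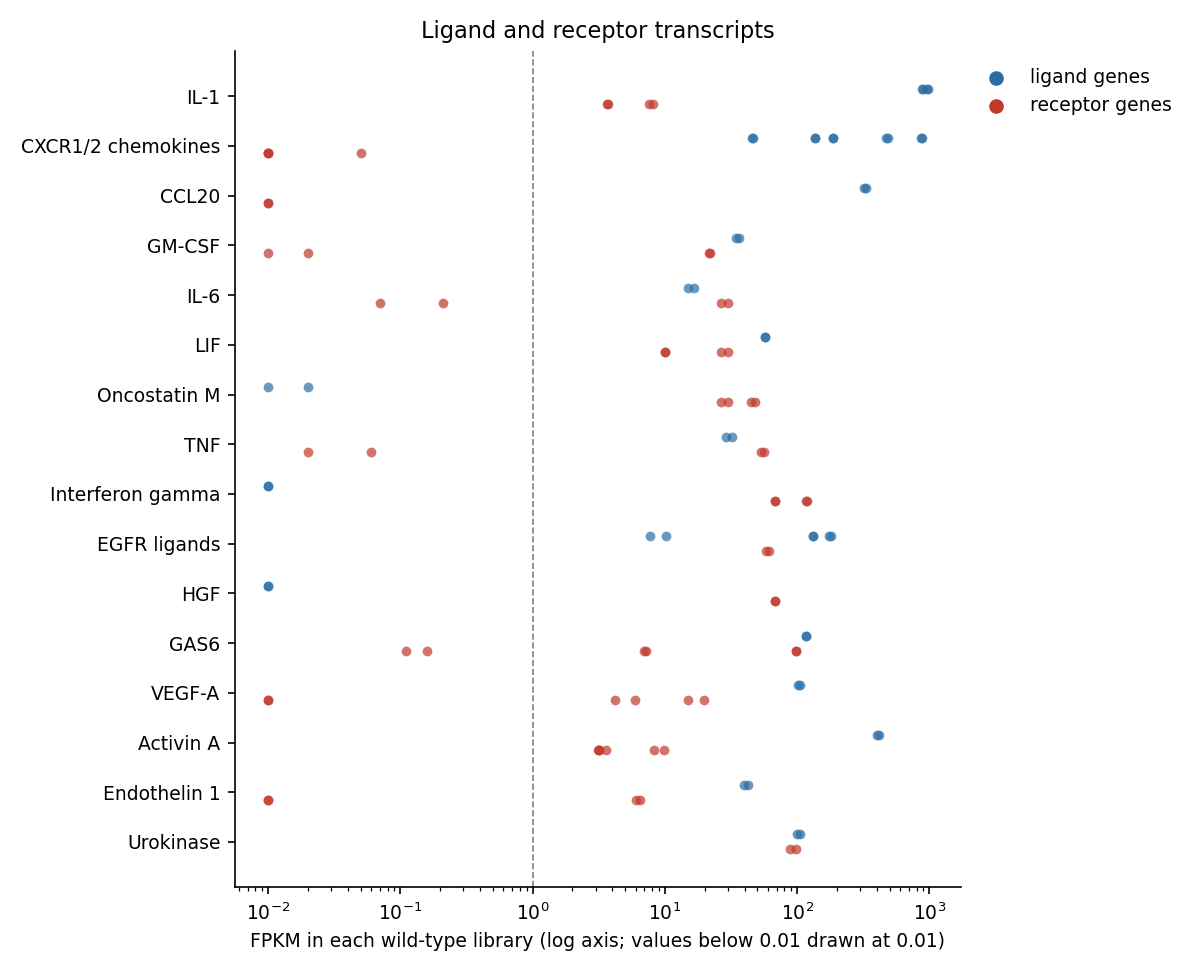
Each row is a ligand system, with ligand genes in blue and receptor genes in red, 1 point per gene and wild-type library, in FPKM on a log axis (values below 0.01 drawn at 0.01, dashed line at 1 FPKM). For the CXCR1 and CXCR2 chemokines and CCL20 the ligands lie to the right and the receptors at or near 0, and for oncostatin M, interferon gamma and HGF the order is the opposite.

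The opposite arrangement, receptor without ligand, also occurred. IFNGR1 had 117 and 118 FPKM and IFNGR2 68.0 and 68.5 FPKM with IFNG at 0. OSMR had 45.0 and 47.6 FPKM with OSM at 0.02 and 0 FPKM, and MET, the receptor of HGF, had 68.3 and 68.4 FPKM with HGF at 0. Of 55 cytokine and TNF receptors 36 were expressed (65.5%, against 55.6% of all protein-coding genes). TNFRSF12A (119 and 115 FPKM) overlapped IFNGR1, and the death receptor TNFRSF10B (85.1 and 82.5 FPKM), TNFRSF21 (80.8 and 82.1 FPKM), LTBR (58.1 and 59.4 FPKM), IL4R (28.99 and 31.26 FPKM) and TNFRSF10A (29.8 and 28.0 FPKM) completed the highest 10 with those already given.

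Of 58 receptor tyrosine kinases 27 were expressed (46.6%, below the 55.6% of all protein-coding genes). EPHA2, the receptor of EFNA1, was highest with 185 and 181 FPKM and exceeded EGFR 3.05 and 3.08 times. AXL (98.4 and 98.8 FPKM) and the collagen receptor DDR1 (91.6 and 99.1 FPKM) overlapped, and MET and EGFR (60.8 and 58.5 FPKM) came next. PTK7 had 33.8 and 35.5 FPKM, RYK 30.2 and 31.7 FPKM, MST1R 22.7 and 23.9 FPKM, EPHB4 22.2 and 22.8 FPKM, and ERBB2 14.5 and 14.4 FPKM, so EGFR stood 4.20 and 4.08 times above ERBB2. FGFR2 had 1.27 and 1.21 FPKM. EGFR was thus expressed with HBEGF and TGFA, and AXL with GAS6. KIT, PDGFRA, PDGFRB, ERBB4 and KDR were below 0.1 FPKM in both libraries.

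The highest developmental receptors stood below the highest cytokine and TNF receptors and the highest receptor tyrosine kinases. Of 36 receptors for TGF-beta, BMP, WNT, Notch and hedgehog ligands 24 were expressed (66.7%, against 55.6% of all protein-coding genes). The list median was 3.655 FPKM, and none reached 100 FPKM. FZD6 had 35.6 and 35.0 FPKM, ENG 20.4 and 20.7 FPKM, LRP5 18.5 and 19.6 FPKM, NOTCH2 18.7 and 18.1 FPKM, TGFBR1 15.3 and 15.2 FPKM, LGR4 14.3 and 14.8 FPKM, TGFBR2 12.8 and 12.9 FPKM, FZD2 11.4 and 12.2 FPKM, ACVR1 11.1 and 11.2 FPKM and LRP6 8.62 and 9.65 FPKM. NOTCH1 had 7.43 and 7.89 FPKM and FZD7 4.59 and 4.62 FPKM. In the hedgehog branch PTCH1 had 1.77 and 1.29 FPKM, its signal transducer SMO 0.03 and 0.05 FPKM and the target GLI1 0.01 and 0 FPKM.

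Nuclear receptors, the ligand-controlled transcription factors, were expressed in 25 of 48 cases (52.1%, near the 55.6% of all protein-coding genes). RXRA (35.7 and 34.2 FPKM), the partner of many others, was highest, before NR2F6 (26.0 and 26.0 FPKM), ESRRA (21.4 and 21.5 FPKM), RXRB (21.3 and 21.4 FPKM), PPARD (15.64 and 15.96 FPKM), NR2F2 (15.7 and 15.5 FPKM), NR4A1 (14.5 and 14.1 FPKM), NR2C1 (13.9 and 13.3 FPKM), RARG (12.7 and 14.1 FPKM) and PPARG (12.4 and 12.8 FPKM). Of these ESRRA and RXRB overlapped, as did PPARD and NR2F2, and NR2C1, RARG and PPARG in turn. The vitamin D receptor VDR had 7.56 and 9.08 FPKM and the glucocorticoid receptor NR3C1 5.68 and 5.96 FPKM. The sex steroid receptors were low, with ESR1 at 0.20 and 0.19 FPKM and PGR at 0.

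Of 34 innate immune sensors and inflammasome genes 19 were expressed (55.9%, near the 55.6% of all protein-coding genes). The lipopolysaccharide-sensing caspase CASP4 had 76.6 and 80.2 FPKM, the pore-forming GSDMD 43.6 and 39.3 FPKM, the adaptor PYCARD 36.5 and 36.6 FPKM, IFI16 33.1 and 30.9 FPKM, the DNA sensor CGAS 26.5 and 25.7 FPKM and NLRP1 24.1 and 23.4 FPKM. STING1 (12.3 and 13.5 FPKM), the RNA sensors RIGI (12.3 and 13.2 FPKM) and IFIH1 (12.1 and 11.8 FPKM), and CARD8 (8.76 and 12.2 FPKM) followed. NLRP3 had 3.33 and 3.32 FPKM, TLR3 2.13 and 2.12 FPKM and TLR4 0.70 and 0.64 FPKM.

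Among 55 surface antigens and checkpoint ligands 34 were expressed (61.8%, against 55.6% of all protein-coding genes). F3, tissue factor, which starts coagulation, had 597 and 593 FPKM, and the hyaluronan receptor CD44 365 and 376 FPKM. The complement inhibitors CD59 (245.7 and 248.9 FPKM), CD46 (102 and 105 FPKM) and CD55 (92.4 and 90.0 FPKM) were all high, beside C3. LY6E had 218 and 222 FPKM. CLDN6, a claudin of embryonic epithelium, had 147 and 149 FPKM. The checkpoint ligand CD274, PD-L1, had 29.6 and 29.9 FPKM and the macrophage signal CD47 64.3 and 70.4 FPKM. The carcinoembryonic antigen CEACAM5 had 0.25 and 0 FPKM, and CLDN18, a therapeutic target in stomach cancer, was near 0 as given above.

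Genes expected in every cell were set beside these lists. All 121 listed subunits of the proteasome, spliceosome, RNA polymerase II and other shared complexes reached 10 FPKM in both libraries, with a median of 103 FPKM. The subunits were chosen with earlier results of these data known, so their levels cannot show that other genes are absent. Their highest members were the spliceosome subunits SNRPD2 (636 and 625 FPKM) and SNRPB (526 and 535 FPKM), the proteasome subunits PSMA7 (534 and 522 FPKM) and PSMB4 (386 and 388 FPKM) and the chaperonin subunits CCT5 (516 and 519 FPKM) and CCT4 (427 and 421 FPKM). The lowest was EXOSC6 with 10 and 10.82 FPKM. None of the listed subunits was therefore at 0.

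Of 84 tumour suppressor and mismatch repair genes 70 were expressed (83.3%), and 13 were below 1 FPKM in both libraries, as were 43.1% of all protein-coding genes. Among the mismatch repair genes, MSH6 had 81.2 and 80.1 FPKM, PMS2 6.42 and 6.41 FPKM, MSH3 5.10 and 4.70 FPKM and MLH3 1.59 and 1.40 FPKM.

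Members of WNT inhibitor families and negative regulators of WNT were among those 13 genes. The list was chosen with earlier results of these data known, so how many it holds is not a finding. Other negative regulators of WNT in the list were expressed, APC at 6.28 and 6.27 FPKM and AXIN1 at 11.86 and 12.46 FPKM. SFRP2 and WIF1 were listed at 0, SFRP1 had 0 and 0.01 FPKM and DKK3 0.13 and 0.26 FPKM. AXIN2, a WNT target that limits the pathway, had 0.06 and 0.06 FPKM, and RNF43, the ligase that removes WNT receptors, 0.23 and 0.15 FPKM, whereas its paralogue ZNRF3 had 3.92 and 4 FPKM. Also below 1 FPKM in both were RUNX3 and RPRM, both listed at 0, RASSF2 (0 and 0.01 FPKM), UCHL1 (0 and 0.22 FPKM), XAF1 (0.46 and 0.61 FPKM) and TFPI2 (0.67 and 0.78 FPKM). FHIT lay between, with 0.57 and 2.88 FPKM, and is a gene on which the libraries differ. Genes often deleted in cancer were read: CDKN2A had 60.5 and 61.7 FPKM, its neighbour MTAP 31.9 and 27.8 FPKM and SMAD4 28.7 and 27.6 FPKM. B2M (786 and 777 FPKM), GSTP1 (731 and 724 FPKM), CTNNA1 (128 and 130 FPKM) and TNFAIP3 (113 and 119 FPKM) were among the highest of the list, with CTNND1 at 98.8 and 97.7 FPKM. A level says nothing of the sequence of the transcript.

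Near-zero genes lay together along chromosomes. There were 169 runs of at least 5 neighbouring protein-coding genes that were all near 0, 31 runs of at least 10 and 7 of at least 20. The longest held 56 genes on chromosome 11, 51 of them olfactory receptors, next to PTPRJ (7.40 and 7.79 FPKM). The next held 43 genes on chromosome 1, 41 of them olfactory receptors, between NLRP3 and SH3BP5L (13.5 and 12.9 FPKM). A run of 36 genes on chromosome 21, of which 32 encode keratin-associated proteins of hair, lay between BACH1 (47.1 and 59.9 FPKM) and SOD1 (193 and 201 FPKM). The fourth, of 32 genes, was the LCE and SPRR stretch described above. By chromosome the expressed share ran from 47.5% on X and 48.4% on 21 to 62.2% on 16, around 57% over all placed genes. The median level of expressed genes was highest on chromosome 20 (25.4 FPKM) and lowest on 15 (12.4 FPKM), around 15.6 FPKM over all.

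The summed FPKM was concentrated in few genes. Protein-coding rows held 96.39% and 96.32% of the summed FPKM of the Ensembl rows. The 10 highest genes held 11.67% and 11.02%, the 100 highest 36.47% and 35.85% and the 1000 highest 65.75% and 65.28%. The 13 mitochondrially encoded protein genes took 10.21% and 9.547%, and 87 cytosolic ribosomal protein genes 18.06% and 17.94%. MT-ATP8 was the highest gene with 15442 and 11951 FPKM, a difference between replicates that is wide for its level, and it is a very short gene that overlaps MT-ATP6 (7164 and 6669 FPKM). The actin-sequestering TMSB4X, second, had 10818 and 10915 FPKM. MT-ND4L, MT-CO1, MT-CO2, MT-ND3, MT-ND4 and MT-ND2, the elongation factor EEF1A1 (6036 and 5959 FPKM), the ribosomal proteins RPL39, RPS21, RPS29, RPS18 and RPL37A, the ferritin chain FTH1 (4376 and 4538 FPKM), the cyclophilin PPIA and the actins ACTB (3002 and 2963 FPKM) and ACTG1 (2849 and 3005 FPKM) made up the 20 highest together with S100A9.

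Pseudogenes held 1.567% and 1.367% of the summed FPKM, long intergenic RNAs 0.3704% and 0.3701%, antisense RNAs 0.505% and 0.6234% and the miscellaneous class 0.4859% and 0.6433%. The signal recognition particle RNAs RN7SL2 (3203 and 4181 FPKM) and RN7SL1 (1281 and 2091 FPKM), the pseudogenes AC107016.1 (2859 and 975 FPKM) and RPL41P1 (1344 and 1414 FPKM) and the mitochondrial ribosomal RNA MT-RNR2 (1352 and 1261 FPKM) were the highest. AC107016.1 differed widely between replicates. The copies of RN7SL and RPL41 share sequence, so their single values are uncertain. Among long non-coding RNAs with known roles, UCA1 had 242 and 242 FPKM, H19 170 and 176 FPKM and MIR205HG, the host gene of miR-205, 162 and 152 FPKM. IGF2, the imprinted neighbour of H19, had 0.06 and 0.06 FPKM. Mature microRNAs were not measured.

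A few genes differed between the 2 libraries by more than their level class. Among protein-coding genes past 10 FPKM the widest differences were those of AL035252.1 (71.1 and 29.5 FPKM), SLX1B (13.1 and 31.02 FPKM) and ADIRF (54.9 and 29.2 FPKM). SLX1A, a near copy of SLX1B, differed in the opposite direction (32.8 and 19.8 FPKM). Of the expressed genes 48 of 11262 had identical values in both libraries.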

How the data were processed

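Total RNA of NUGC3 cells was extracted with Trizol and sequenced on Illumina libraries, per the labels' protocols. The FPKM values were deposited by the authors, and the submitters' processing notes name STAR and RSEM. For tool versions, genome build and gene models nothing is stated (not given in the sources used here). Values had 2 decimals and no unit in the header. They were read as FPKM, because the columns summed to 739335 and 730732 and not to a common total, but a TPM table with rows left out could not be told apart from it. All summed values and shares are of the 53777 Ensembl rows unless stated.

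The files used give no counts, so the depth is unknown and no counting interval is given. The spacing of low values put replicate 2 at 78.8% to 89.4% of the depth of replicate 1, for assumed fragment lengths of 250 to 150 bases. The match to even spacing was weak, with scores of 0.091 to 0.294 on a scale whose best value is 1, so this ratio is uncertain. Of 11262 expressed genes 48 had identical values in both libraries, so the 2 columns are not copies of each other. A script in Python 3.11.15 (pandas 2.3.3, numpy 2.4.6) read the wild-type columns, counted genes, and was tested on simulated data. Log2 differences between libraries used a pseudocount of 1.

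Symbols were updated with current tables, and 1251 of 1254 list genes were found, 24 under older symbols. CD24, PRSS2 and PECAM1 were not matched. In 31 gene lists the text names the defining members, the 6 highest (10 for secreted proteins and receptors), all below 1 FPKM among suppressors and shared complexes, and all at 10 FPKM or more in lists of other tissues, with the 20 highest protein-coding genes and the 5 highest of other biotypes. Members and lists were chosen with earlier results of these data known. Gene order came from GENCODE release 29 and promoters from RefSeq (GRCh38.p14). Genes outside the rule, such as NF-kB and collagen genes, were chosen after their values were seen. A few members within the rule are not reported here.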

Additional observations from a re-analysis of the deposited data

Results flagged for a closer look

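The rows outside the Ensembl annotation, which enter no value above, held a summed level of 62890 FPKM in replicate 1 and 61885 FPKM in replicate 2. They were looked at because they carry signal outside the measurement described. There are 291033 such rows, and what they are was not tested.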

How the results depend on the processing

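The count of expressed protein-coding genes stayed within 1.5 times of 11262 under every alternative tried, from 8991 at a minimum of 5 FPKM to 11853 at 0.5 FPKM, and was 11388 without replicate 1 and 11403 without replicate 2. The protein-coding share moved by more than the spread between replicates with all rows of the table as the denominator (88.17%), with mitochondrially encoded genes left out (96.26%) and with FPKM times transcript length (97.99%), and was 96.32% to 96.39% with 1 library left out. The median absolute log2 difference between replicates, 0.0675 for expressed genes, fell to 0.043 with no filter on low values. TATAAA anywhere in the 300 bases gave 12% below 0.1 FPKM, 3.16% at 10 to 100 FPKM and 6.01% at 100 FPKM or more, and TATAA from -40 to -20 gave 9.38%, 2.0% and 7.37%. With 1 library left out these shares were 6.28% to 6.34%, 1.06% to 1.11% and 3.55% to 3.56%. The middle class was lowest of the 3 in each. Of 31 gene lists, the count of expressed members moved by over 1.5 times in 3 at a minimum of 0.5 FPKM and in 10 at 5 FPKM, and in 0 with columns scaled to a common sum of 1000000 or 1 library left out. No paired analysis was possible because the profile has 1 group and its results come from no test.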
